A study of Rattus norvegicus with 4 samples.

Results

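DNA polymerases, the sliding clamp with its loader, and genes of DNA repair were followed in the established rat cell line RSC96, labelled as Schwann cells, which are the glia of peripheral nerves. The genes were taken by symbol from the gene table: the Fanc genes, the numbered Rad, Xrcc, Msh, Mlh, Ercc, Rfc, Rpa, Lig, Brca, Gins and Parp genes, the Pol genes of nuclear DNA synthesis, and Pcna, Exo1, Fen1, Clspn, Chek1, Chek2 and Atm. The rule found 89 of 17778 gene rows, and Atr, Blm and Wrn were not analysed here. By role, 25 genes belong to replication, 7 to the checkpoint, 46 to repair routes and 11 to other roles that share a symbol stem. All cells were of generation 4 and had been kept overnight without serum. The IL-22 group then received recombinant rat IL-22, a cytokine related to IL-10, at 100 ng/ml for 48 h. The control group received only the solvent, 0.1% bovine serum albumin, for a time the labels do not give. Each group had 2 libraries of the same cell line. Nothing in the labels says that they came from separate cultures, so the p-values reflect the spread of these libraries alone, and that spread may be technical.

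DNA replication starts when the GINS complex joins the MCM ring to form the active helicase. Polymerase alpha lays down primers, polymerase epsilon extends the leading strand and polymerase delta the lagging strand, held to the template by the PCNA ring that the RFC complex loads. Repair routes borrow parts of this machine. Homologous recombination and the Fanconi anaemia pathway act mostly in cells that replicate, whereas base excision, nucleotide excision and end joining also work in cells that do not divide. In peripheral nerve, Schwann cells leave the cell cycle when they mature and enter it again after injury. The series is titled for IL-22 and Schwann cell proliferation, and the comparison asks how replication genes and each repair route differed between treated and control cells.

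Values are FPKM, fragments scaled by transcript length and library total, as the authors deposited them. Each difference is the IL-22 mean less the control mean on a log2(FPKM + 1) scale, given ± its standard error by limma, and every fold is a ratio of mean FPKM. Summed FPKM of the gene table lay between 630119 and 669549. Read totals are unknown, but the steps between low values put the depth of the other libraries at 1.08 to 1.29 times that of control library 1. Of 13 Schwann lineage markers with a row, 8 lay under 1 FPKM in every library, among them Sox10, S100b, Ngfr and Mbp, so defining markers of the labelled cell type were at or near 0. Of the 5 that were tested, Pmp22, Egr2, Erbb3 and Ncam1 rose and Gfap fell. Pmp22, a myelin protein gene, measured 18.2 and 20.2 FPKM in the controls and 41.0 and 42.3 FPKM with IL-22, and Ncam1 measured 23.9 and 24.9 FPKM in the controls and 34.1 and 38.3 FPKM with IL-22. Egr2, a regulator of myelination, measured 0.44 and 0.48 FPKM in the controls and 4.63 and 5.60 FPKM with IL-22. Among 7 macrophage and leukocyte markers, 5 also lay under 1 FPKM in every library. Of 6 fibroblast markers 3 did so, namely Col3a1, Dcn and Lum. The fibroblast marker Col1a2 measured 186 and 159 FPKM in the controls and 144 and 148 FPKM with IL-22. Col1a1 measured 11.0 and 8.98 FPKM in the controls and 6.12 and 6.92 FPKM with IL-22. Pdgfra measured 7.99 and 7.58 FPKM in the controls and 9.97 and 10.2 FPKM with IL-22.

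Genes of replication fell almost as a block after IL-22, while the repair routes divided. Of the 89 genes 85 had a mean of at least 1 FPKM and were tested with limma. Of these, 56 fell, 11 rose and 18 did not pass the threshold of 0.05 on the adjusted p. Over all 9485 rows tested, 30.8% were called lower and 27.6% higher, 58.4% in either direction. Groups did not overlap for 58 lower and 17 higher genes, against 41.7% of all tested rows in the lower and 38.4% in the higher direction. In replication 24 of 25 fell and 1 rose, with a median difference of -0.91. In the checkpoint 5 of 7 fell and 2 did not pass, with a median of -0.55. In the repair routes 23 of 45 tested fell, 6 rose and 16 did not pass, with a median of -0.27. The median over all tested rows was -0.02. Falls of at least 1 log2 were called for 10 replication, 2 checkpoint and 5 repair genes, and for 2.84% of all tested rows. The difference between replication and repair as sets was not tested. The genes Fancb, Msh4, Msh5 and Fancd2os were under the expression minimum, at means of at most 1.28 FPKM in either group, and Msh4 was listed at 0 in all 4 libraries.

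**Figure D1:**
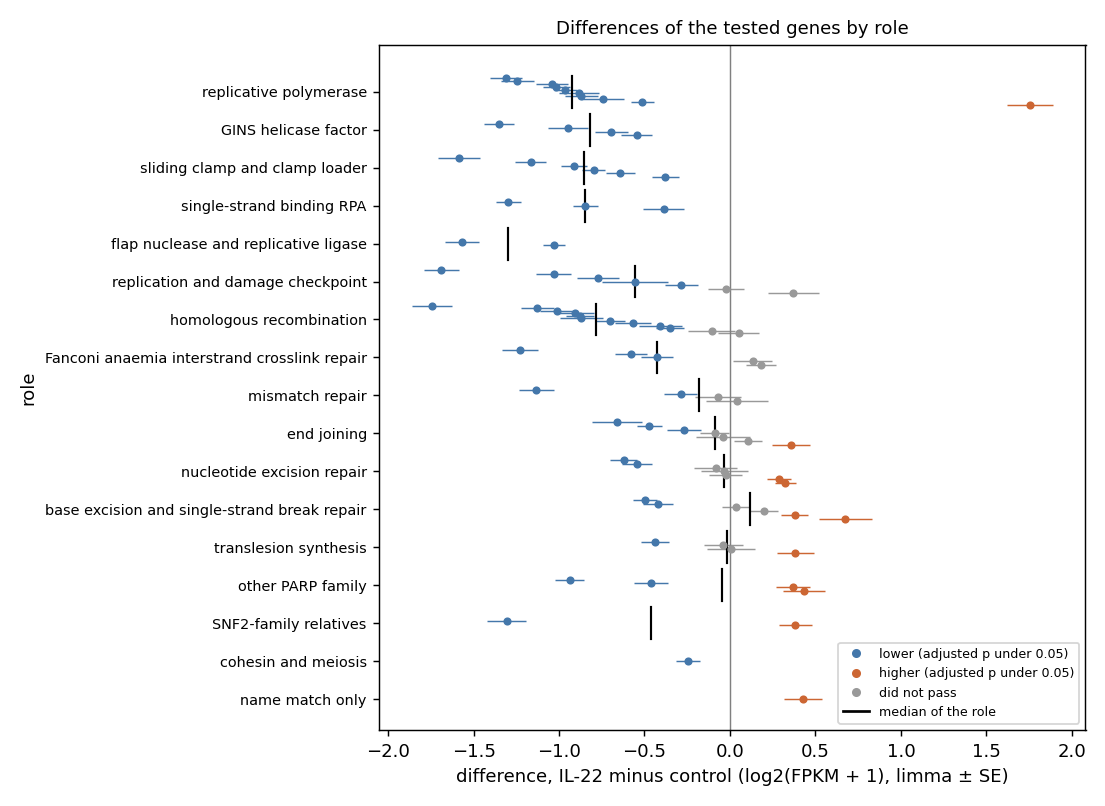
Differences of the 85 tested genes by role (IL-22 mean less control mean of log2(FPKM + 1)), with limma standard errors as bars, colour for the call and a black line for the median of each role with at least 2 tested genes. The replication roles at the top lie left of 0 except for 1 gene of the replicative polymerases, Pold4 at 1.76, and the excision repair roles lie on both sides of 0.

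Among the replicative polymerases, 9 of 10 subunit genes fell and 1 rose (median -0.92). Pole encodes the catalytic subunit of polymerase epsilon, and it measured 26.8 and 30.2 FPKM in the control libraries against 11.3 and 10.5 FPKM after IL-22. The groups did not overlap, and the mean was 2.62-fold lower with IL-22 (difference -1.31 ± 0.09, limma adjusted p = 5.74e-06). The accessory subunit gene Pole2 measured 7.23 and 7.30 FPKM with IL-22 against 15.5 and 16.5 FPKM in the controls (difference -1.04 ± 0.09, limma adjusted p = 2.32e-05). Pole3 and Pole4, small histone-fold subunits, fell by less (-0.87 and -0.74). In polymerase alpha, which starts each new strand with primase, the catalytic gene Pola1 measured 11.2 and 9.98 FPKM in the controls and 5.71 and 4.87 FPKM with IL-22 (difference -0.88 ± 0.12, limma adjusted p = 0.000215). Its partner Pola2 measured 21.1 and 22.2 FPKM in the control libraries against 7.96 and 9.20 FPKM after IL-22 (difference -1.24 ± 0.10, limma adjusted p = 1.08e-05). In all 9 falls of the replicative polymerases the higher IL-22 library lay under the lower control library, as in 41.7% of all tested rows. Since these genes were called lower, this is no further support.

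Within polymerase delta the subunit genes moved apart. The catalytic gene Pold1 measured 39.5 and 39.4 FPKM with IL-22 against 79.2 and 76.6 FPKM in the controls (difference -0.96 ± 0.07, limma adjusted p = 4.99e-06). Pold2, which ties the accessory subunits to the catalytic one, measured 71.4 and 75.3 FPKM in the controls and 50.5 and 51.6 FPKM with IL-22 (difference -0.51 ± 0.07, limma adjusted p = 0.000211), and Pold3, which binds PCNA, measured 32.6 and 31.5 FPKM in the control libraries against 15.8 and 14.9 FPKM after IL-22 (difference -1.02 ± 0.08, limma adjusted p = 1.05e-05). Pold4 encodes the smallest subunit, which is known to be degraded after DNA damage. It measured 42.1 and 35.7 FPKM with IL-22 against 9.24 and 12.5 FPKM in the controls. Both IL-22 libraries lay above both controls, and the mean was 3.58-fold higher (difference 1.76 ± 0.13, limma adjusted p = 9.06e-06). This was the largest rise of the 85 tested genes. The ratio of Pold4 to the mean FPKM of the other 3 subunit genes was 0.151 and 0.205 in control libraries and reached 1.19 and 1.01 under IL-22, so Pold4 went from the least abundant subunit message to about the level of Pold1. The call of Pold4 held in all 14 alternatives (its limma adjusted p lay between 1.37e-16 and 0.00416 across 14 alternatives).

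The genes annotated around Pold4 in the assembly GRCr8 did not all move with it. Clcf1, a cytokine gene next to it, measured 20.6 and 24.5 FPKM in the controls and 16.8 and 16.9 FPKM with IL-22 (difference -0.39 ± 0.10, limma adjusted p = 0.00734). Ppp1ca, a phosphatase gene 3 genes before it, also fell (-0.41). Ankrd13d, 3 genes after it, rose (0.61), and Ssh3 did not pass (-0.03, limma adjusted p = 0.809).

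**Figure D2:**
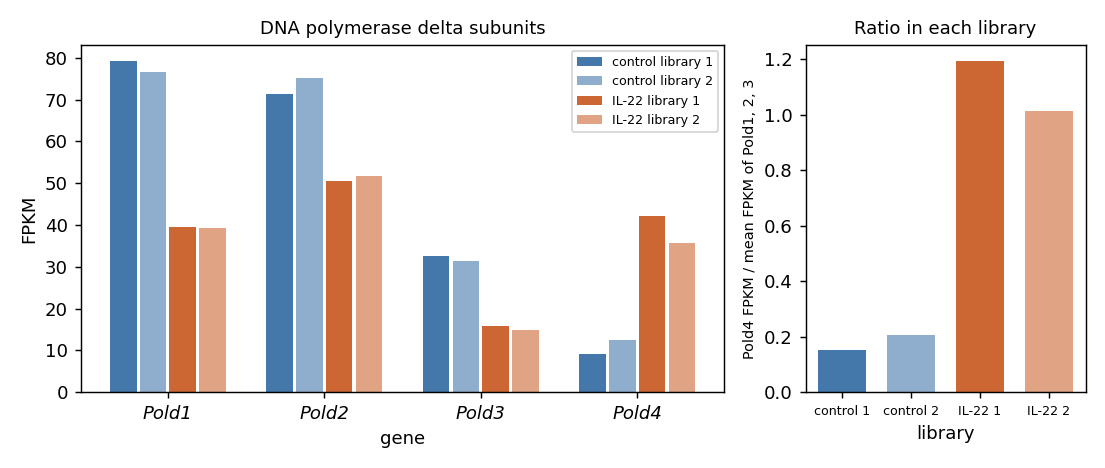
FPKM of the 4 subunit genes of DNA polymerase delta in each library (left, bars from 0) and the ratio of Pold4 to the mean of Pold1, Pold2 and Pold3 in each library (right). Pold4 is the lowest of the 4 in the controls, at 9.24 and 12.5 FPKM, and reaches 42.1 and 35.7 FPKM with IL-22, while the other 3 are lower with IL-22.

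All 4 GINS genes fell. Gins1 measured 37.7 and 42.6 FPKM in the controls and 15.5 and 14.7 FPKM with IL-22 (difference -1.35 ± 0.09, limma adjusted p = 3.47e-06), a 2.66-fold lower mean. Gins3 measured 11.6 and 10.9 FPKM in the control libraries against 5.94 and 4.82 FPKM after IL-22 (difference -0.95 ± 0.12, limma adjusted p = 0.000152). Gins4 and Gins2, which complete the complex, fell by less (-0.69 and -0.55), so the subunits of 1 complex differed among themselves by 0.81 on the log2 scale.

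Pcna, the sliding clamp and the most abundant replication message, measured 63.3 and 54.9 FPKM with IL-22 against 142 and 126 FPKM in the controls, and it fell together with the polymerases it holds (-1.17). All 5 clamp loader genes fell as well, but unequally. Rfc5, a small subunit, measured 67.8 and 69.3 FPKM in the controls and 26.0 and 18.9 FPKM with IL-22, with the IL-22 libraries further apart than the controls (difference -1.59 ± 0.12, limma adjusted p = 1.03e-05). Rfc3 measured 56.0 and 52.0 FPKM in the control libraries against 27.8 and 28.7 FPKM after IL-22 (difference -0.91 ± 0.07, limma adjusted p = 1.29e-05). Rfc2 (-0.80) and Rfc4 (-0.64) followed. Rfc1, the large subunit found only in the loader of PCNA, fell least, from 29.6 and 29.8 FPKM to 23.4 and 22.0 FPKM (difference -0.38 ± 0.08, limma adjusted p = 0.00263). The ratio of Rfc1 to the mean FPKM of the 4 small subunit genes was 0.492 and 0.515 in control libraries and reached 0.777 and 0.769 under IL-22. The small subunits also serve loaders in which another large subunit replaces Rfc1.

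The 3 RPA genes, whose products coat single-stranded DNA in replication and repair, fell to different extents. Rpa2 measured 23.8 and 22.9 FPKM with IL-22 against 59.3 and 58.2 FPKM in the controls (difference -1.30 ± 0.07, limma adjusted p = 1.42e-06). Rpa1, which carries most of the DNA-binding surface, measured 59.1 and 58.1 FPKM in the controls and 33.5 and 30.8 FPKM with IL-22 (-0.85). Rpa3 measured 28.4 and 21.7 FPKM in the control libraries against 18.4 and 19.2 FPKM after IL-22 (difference -0.39 ± 0.12, limma adjusted p = 0.0191), and its call was lost without the expression filter and on leaving out control library 1 (its limma adjusted p lay between 0.000969 and 0.104 across 14 alternatives). Control library 1 was the highest there.

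Both genes that finish Okazaki fragments fell. Fen1, the flap nuclease, measured 15.8 and 15.8 FPKM with IL-22 against 53.9 and 44.0 FPKM in the controls, a 3.10-fold lower mean (difference -1.57 ± 0.10, limma adjusted p = 3.30e-06). Lig1, the ligase of the lagging strand, measured 93.0 and 92.0 FPKM in the controls and 45.4 and 44.1 FPKM with IL-22 (difference -1.03 ± 0.07, limma adjusted p = 3.12e-06). Lig3, which seals single-strand breaks with Xrcc1, measured 18.3 and 18.3 FPKM in the control libraries against 18.7 and 18.8 FPKM after IL-22 and did not pass (limma adjusted p = 0.74). The ratio of Lig3 to Lig1 was thus 0.197 and 0.199 in control libraries and reached 0.412 and 0.426 under IL-22.

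**Figure D3:**
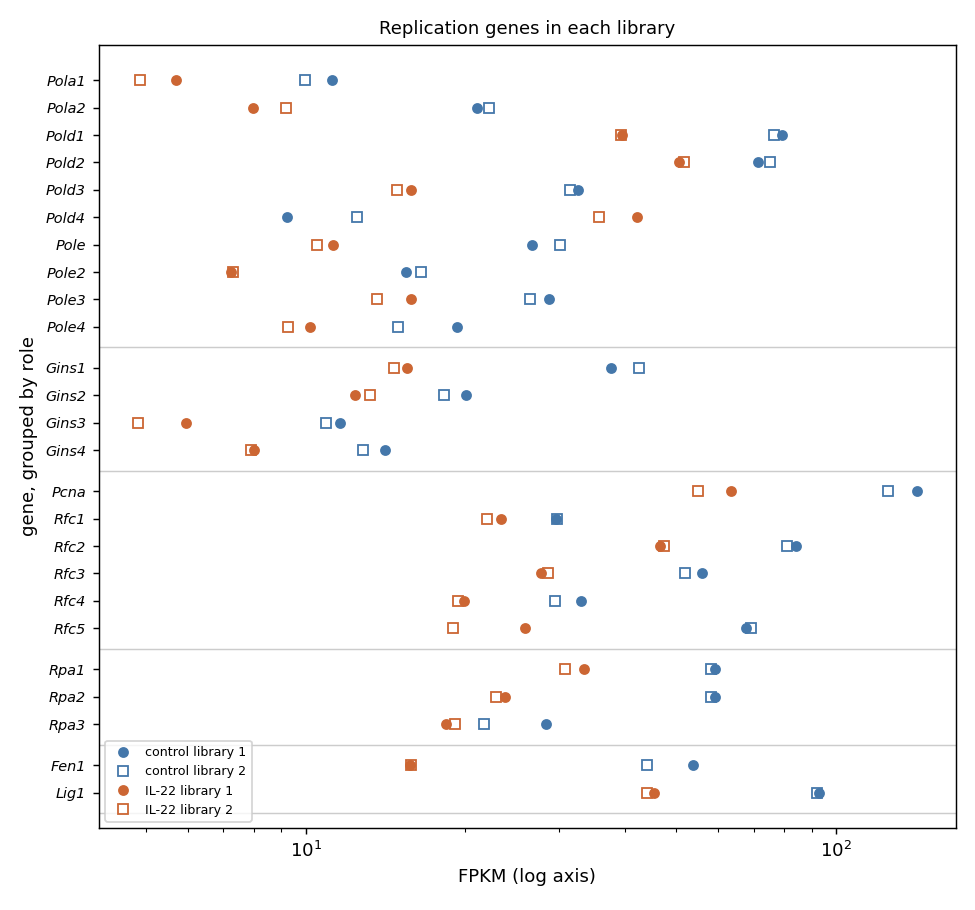
FPKM of the 25 replication genes in each of the 4 libraries on a log axis, grouped by role, with filled circles for library 1 and open squares for library 2 of a group. In 24 rows both IL-22 libraries lie left of both controls, and in the row of Pold4 they lie right of them, at 42.1 and 35.7 FPKM.

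In the checkpoint, Clspn and Chek1 had the largest falls of the 7 genes. Clspn encodes claspin, the adaptor that lets the kinase ATR activate CHK1, and it measured 5.70 and 5.19 FPKM with IL-22 against 20.6 and 18.9 FPKM in the controls. Its mean was 3.63-fold lower with IL-22, and the groups did not overlap. Chek1, the gene of CHK1, measured 11.6 and 12.1 FPKM in the controls and 5.45 and 5.13 FPKM with IL-22 (difference -1.03 ± 0.10, limma adjusted p = 3.90e-05). Atm, the kinase that answers double-strand breaks, measured 5.06 and 5.40 FPKM in the control libraries against 2.74 and 2.56 FPKM after IL-22 (difference -0.77 ± 0.12, limma adjusted p = 0.000695). Chek2, the kinase downstream of ATM, measured 11.7 and 12.3 FPKM with IL-22 against 14.0 and 15.8 FPKM in the controls (difference -0.28 ± 0.10, limma adjusted p = 0.0301), and that call was lost without the expression filter and on leaving out any of control library 2, IL-22 library 1 and IL-22 library 2 (its limma adjusted p lay between 0.0185 and 0.137 across 14 alternatives). The ratio of Chek2 to Chek1 was 1.21 and 1.30 in control libraries and reached 2.15 and 2.40 under IL-22.

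The clamp that signals damage gave less clear values. Rad1, a subunit of this clamp, measured 12.0 and 7.10 FPKM in the controls and 6.24 and 5.74 FPKM with IL-22, with control library 1 well above control library 2 (difference -0.55 ± 0.19, limma adjusted p = 0.0328). The call was lost without the expression filter, without the trend and on leaving out control library 1 (its limma adjusted p lay between 0.000433 and 0.193 across 14 alternatives). Rad17, which loads the clamp, measured 8.20 and 7.35 FPKM in the control libraries against 7.65 and 7.60 FPKM after IL-22 and did not pass (limma adjusted p = 0.866). Rad9b, a paralog of the clamp subunit RAD9A, measured 2.12 and 2.41 FPKM with IL-22 against 1.5011 and 1.54 FPKM in the controls and did not pass (limma adjusted p = 0.058), though it did without the expression filter and without the trend (its limma adjusted p lay between 0.0113 and 0.477 across 13 alternatives). Of 9 partner genes of the checkpoint outside the rule, 7 fell (77.8%), against 30.8% of all tested rows, and 2 did not pass. Mdc1 (-1.29), a scaffold at broken ends, and the cell-cycle regulators Wee1 (-1.15) and Cdc25a (-1.09) were lowest, while the fork kinase partner Atrip fell by 0.58 on the log2 scale and the clamp subunit Hus1 did not pass (-0.19).

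Homologous recombination was the repair route with the largest share of falls. Of its 12 genes 10 fell (83.3%), against 30.8% of all tested rows, and 2 did not pass, with a median of -0.78. Exo1, the nuclease that widens resected ends and also serves mismatch repair, measured 10.5 and 10.1 FPKM in the controls and 2.21 and 2.54 FPKM with IL-22. It was 4.34-fold lower with IL-22, the largest fall of all 85 tested genes (difference -1.75 ± 0.12, limma adjusted p = 4.30e-06). Rad51ap1, a cofactor of strand exchange, measured 5.96 and 5.90 FPKM with IL-22 against 14.6 and 13.7 FPKM in the controls (difference -1.13 ± 0.10, limma adjusted p = 1.82e-05). Brca1 measured 15.6 and 14.7 FPKM in the controls and 7.47 and 6.55 FPKM with IL-22 (difference -1.01 ± 0.10, limma adjusted p = 4.59e-05). Brca2, a mediator of strand exchange, was low throughout at 4.21 and 4.44 FPKM in the control libraries against 3.12 and 2.91 FPKM after IL-22 (difference -0.41 ± 0.13, limma adjusted p = 0.0201), and its call was lost on leaving out either control library 2 or IL-22 library 2 (its limma adjusted p lay between 0.00601 and 0.0945 across 13 alternatives).

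Further falls in this route were those of Xrcc2 (-0.90) and Rad51c (-0.57), which assist strand exchange, of Rad54b (-0.87) and Rad54l (-0.70), motor proteins of strand exchange, and of Rad50 (-0.35), which bridges broken ends. For each of these 5 genes the groups did not overlap, as for 41.7% of all tested rows in this direction. These genes were named for their calls, so this is no further support. Rad51d, which also assists it, measured 4.50 and 5.98 FPKM with IL-22 against 5.55 and 5.78 FPKM in the controls, and Rad52, an annealing protein, measured 5.16 and 4.99 FPKM in the controls and 4.90 and 5.70 FPKM with IL-22. The groups overlapped for both genes, and neither passed (limma adjusted p = 0.53 and 0.738). Of 13 partners outside the rule 10 fell (76.9%), against 30.8% of all tested rows, and 3 did not pass. The falls were led by the nuclease subunit Eme1 (-1.11), the BRCA1 partner Bard1 (-0.94) and the resolvase Gen1 (-0.78). Mre11a (-0.67), which works with RAD50, fell, and Nbn (-0.30), the remaining part of that complex, had an adjusted p of 0.0493 by limma.

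In the Fanconi anaemia pathway, which removes crosslinks between strands, 3 of 5 tested genes fell (60%) and 2 did not pass. The share of lower calls over all tested rows was 30.8%. Fanca, a core complex gene, measured 14.2 and 16.1 FPKM in the control libraries against 5.71 and 6.07 FPKM after IL-22 (difference -1.23 ± 0.10, limma adjusted p = 1.62e-05). Fancd2, the protein that the core complex marks with ubiquitin, measured 12.5 and 13.4 FPKM with IL-22 against 18.8 and 20.9 FPKM in the controls (difference -0.58 ± 0.09, limma adjusted p = 0.000637). Reads of Fancd2 and of the overlapping antisense gene Fancd2os cannot be told apart without strand, but Fancd2os was at most 0.102 FPKM. Fancl, the ubiquitin ligase of the pathway, fell (-0.43), while its core neighbours Fancc (5.42 and 4.98 FPKM in the controls and 5.75 and 5.84 FPKM with IL-22) and Fance (15.1 and 14.8 FPKM in the control libraries against 16.3 and 17.9 FPKM after IL-22) did not pass (limma adjusted p = 0.334 and 0.106). Ube2t, the conjugating enzyme that works with FANCL, and Usp1, which removes the mark, both fell (-0.64 and -0.98), and 2 other tested partners did not pass.

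In mismatch repair, which corrects copying errors, Msh3, part of the sensor of larger loops, measured 5.04 and 3.98 FPKM in the controls and 4.33 and 4.11 FPKM with IL-22 and did not pass (limma adjusted p = 0.671). The groups overlapped. Mlh3, which acts after the sensors, measured 1.98 and 1.25 FPKM with IL-22 against 1.45 and 1.58 FPKM in the controls and did not pass (limma adjusted p = 0.856). Of the partners Pms2 fell (-0.28) and Pms1 did not pass (-0.18).

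In end joining, which needs no sister copy, 3 of 7 genes fell (42.9%), 1 rose (14.3%) and 3 did not pass. Over all tested rows 30.8% were lower and 27.6% higher. The 2 subunits of the Ku ring that grips broken ends differed in their calls. Xrcc6, the gene of Ku70, measured 33.6 and 32.9 FPKM in the controls and 23.4 and 24.0 FPKM with IL-22 (difference -0.47 ± 0.07, limma adjusted p = 0.0006), whereas Xrcc5, the gene of Ku80, measured 19.7 and 19.6 FPKM in the control libraries against 19.4 and 17.5 FPKM after IL-22 and did not pass (difference -0.09 ± 0.09, limma adjusted p = 0.395). The ratio of Xrcc6 to Xrcc5 was 1.71 and 1.68 in control libraries and was lower, at 1.21 and 1.37, under IL-22, and the difference between the pair was not tested. Xrcc4, the partner of the end-joining ligase, measured 6.91 and 6.19 FPKM with IL-22 against 4.86 and 4.92 FPKM in the controls (difference 0.36 ± 0.11, limma adjusted p = 0.0233), and this call was lost without the expression filter and on leaving out any of control library 1, control library 2 and IL-22 library 1 (its limma adjusted p lay between 0.0136 and 0.154 across 14 alternatives). The ligase gene Lig4 itself was low, at 1.46 and 1.84 FPKM in the controls and 1.61 and 1.54 FPKM with IL-22, and did not pass (limma adjusted p = 0.848).

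Of the polymerases of end joining, Polq, which serves the error-prone route that relies on short matches, measured 3.29 and 3.80 FPKM in the control libraries against 1.69 and 2.06 FPKM after IL-22 (difference -0.66 ± 0.15, limma adjusted p = 0.00401). Polm measured 8.37 and 8.32 FPKM with IL-22 against 9.75 and 10.8 FPKM in the controls, and its call (limma adjusted p = 0.0436) was lost without the expression filter and on leaving out any of control library 2, IL-22 library 1 and IL-22 library 2 (its limma adjusted p lay between 0.0349 and 0.152 across 14 alternatives). Poll measured 18.4 and 17.5 FPKM in the controls and 18.9 and 19.8 FPKM with IL-22 and did not pass (limma adjusted p = 0.302). Of 5 partners listed 3 fell (60%), against 30.8% of all tested rows. The nuclease gene Dclre1b was lowest (-0.69), and Dclre1c (-0.16) and Nhej1 (-0.31) did not pass.

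Base excision and single-strand break repair, which handle everyday base damage, gave 2 genes that fell, 2 that rose and 2 that did not pass, with a median of 0.12. Shares of 33.3% in each direction are near the 30.8% and 27.6% called over all tested rows. Parp1, the main sensor of strand breaks, measured 82.5 and 76.5 FPKM in the control libraries against 55.5 and 56.3 FPKM after IL-22 (difference -0.50 ± 0.07, limma adjusted p = 0.000282), and Parp2 fell too (-0.42). Parp3, a relative that responds to double-strand breaks, measured 108 and 113 FPKM with IL-22 against 79.3 and 90.5 FPKM in the controls (difference 0.38 ± 0.08, limma adjusted p = 0.00278). Polb, the gap-filling polymerase of base excision, measured 4.11 and 5.82 FPKM in the controls and 9.21 and 7.71 FPKM with IL-22 (difference 0.68 ± 0.15, limma adjusted p = 0.0047). Its call was lost on leaving out control library 1 (its limma adjusted p lay between 7.07e-05 and 0.054 across 14 alternatives). The ratio of Polb to Pole was 0.153 and 0.193 in control libraries and reached 0.818 and 0.733 under IL-22. Xrcc1, the scaffold of the route, measured 52.8 and 56.2 FPKM in the control libraries against 58.5 and 67.0 FPKM after IL-22 and did not pass (limma adjusted p = 0.0652), though it did with quantile normalization, with the replicate number as a block and without IL-22 library 1 (its limma adjusted p lay between 0.0147 and 0.476 across 14 alternatives).

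The partners of this route spread the widest of the 10 partner lists. Of 15 tested 5 fell (33.3%), 4 rose (26.7%) and 6 did not pass, shares near the 30.8% and 27.6% of all tested rows. Apex1, the endonuclease that cuts at abasic sites, measured 104 and 103 FPKM in the controls and 26.4 and 24.2 FPKM with IL-22, a difference of -2.00. Ung, which removes uracil from DNA, measured 46.6 and 42.1 FPKM in the controls and 14.5 and 13.8 FPKM with IL-22 (-1.58). Neil1, a glycosylase of oxidised bases, rose (0.86). In direct reversal, Alkbh3, which strips alkyl groups from bases, measured 28.3 and 26.1 FPKM in the controls and 54.5 and 54.8 FPKM with IL-22 (0.98), while Mgmt and Alkbh2 did not pass.

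Nucleotide excision repair, which cuts out bulky lesions, stayed near its control level as a sum. Of its 7 genes 2 fell, 2 rose and 3 did not pass. The share of 28.6% in each direction is near the 30.8% and 27.6% of all tested rows. Ercc3 and Ercc2, the helicases of the transcription factor TFIIH, fell. Ercc3 measured 19.5 and 20.1 FPKM with IL-22 against 32.0 and 30.0 FPKM in the controls (difference -0.62 ± 0.08, limma adjusted p = 0.000172), and Ercc2 measured 18.5 and 18.4 FPKM in the controls and 11.9 and 12.8 FPKM with IL-22 (difference -0.54 ± 0.09, limma adjusted p = 0.000706). Ercc1, part of the nuclease that cuts before the lesion, measured 78.4 and 85.5 FPKM in the control libraries against 98.8 and 102 FPKM after IL-22 (difference 0.29 ± 0.07, limma adjusted p = 0.00615). Rad23b, which stabilises the damage sensor XPC and gave the most abundant message of all 89 genes, measured 137 and 172 FPKM in the controls and 153 and 149 FPKM with IL-22 and did not pass (limma adjusted p = 0.846). Without control library 1 it was called lower, at a limma adjusted p of 0.0484. Ercc6 and Ercc8, which couple repair to transcription, did not pass (-0.08 and -0.03). Of 13 partners 3 fell (23.1%) and 10 did not pass, against 30.8% lower over all tested rows. The 3 were the TFIIH subunits Gtf2h1 (-0.62) and Gtf2h3 (-0.35) and the damage sensor Ddb1 (-0.19).

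Translesion polymerases copy past damaged bases. Polh, which bypasses ultraviolet lesions, measured 19.8 and 19.1 FPKM in the control libraries against 14.1 and 14.0 FPKM after IL-22 (difference -0.44 ± 0.08, limma adjusted p = 0.00173). Polk measured 8.66 and 7.78 FPKM with IL-22 against 5.9996 and 6.13 FPKM in the controls (difference 0.38 ± 0.11, limma adjusted p = 0.0135), and this call was lost on leaving out any of control library 1, control library 2 and IL-22 library 1 (its limma adjusted p lay between 0.00839 and 0.0999 across 14 alternatives). Poli (2.92 and 2.49 FPKM in the controls and 2.59 and 2.85 FPKM with IL-22) and Rad18 (5.74 and 6.59 FPKM in the control libraries against 5.89 and 6.04 FPKM after IL-22), the ligase that marks PCNA for bypass, did not pass. Among 7 partners Rev1 fell (-0.43), Ube2b, which works with RAD18, rose (0.35) and 5 did not pass. These are 14.3% in each direction, against 30.8% lower and 27.6% higher over all tested rows.

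The genes that share a symbol stem but act elsewhere showed no common direction. Of the further PARP genes, Parp14 measured 18.0 and 15.8 FPKM with IL-22 against 33.4 and 33.0 FPKM in the controls (difference -0.94 ± 0.09, limma adjusted p = 2.58e-05) and Parp9 fell by 0.46 on the log2 scale. Both are known as interferon-induced genes. Parp6 (0.37) and Parp16 (0.43) were higher, calls that were lost on leaving out either control library 1 or IL-22 library 1 (its limma adjusted p lay between 0.00225 and 0.0815 across 14 alternatives) for Parp6 and without the expression filter and on leaving out any of control library 1, control library 2 and IL-22 library 1 (its limma adjusted p lay between 0.00119 and 0.135 across 14 alternatives) for Parp16. Ercc6l, a helicase of mitotic chromosomes, measured 9.49 and 9.57 FPKM in the controls and 3.52 and 3.01 FPKM with IL-22 (difference -1.31 ± 0.12, limma adjusted p = 2.17e-05), and Rad54l2 rose (0.38). Rad21, the cleavable subunit of cohesin, measured 98.9 and 98.2 FPKM in the control libraries against 87.1 and 78.8 FPKM after IL-22 (difference -0.25 ± 0.07, limma adjusted p = 0.0144), and this call was lost on leaving out any of control library 1, control library 2 and IL-22 library 2 (its limma adjusted p lay between 0.00373 and 0.181 across 14 alternatives). Xrcc6bp1, a protease gene of mitochondria in spite of its symbol, was higher (0.43), and its call was lost on leaving out either control library 2 or IL-22 library 2 (its limma adjusted p lay between 0.00143 and 0.0821 across 14 alternatives).

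Summed over their genes, the roles stood at different levels with IL-22. The 25 replication genes summed to 1105 and 1062 FPKM in the controls and 592 and 561 FPKM with IL-22. The IL-22 libraries thus stood at 54.6% and 51.8% of the control mean. The 46 repair genes summed to 1030.0 and 1072 FPKM in the controls and 955 and 965 FPKM with IL-22, or 90.8% and 91.8% of the control mean. Within replication the polymerase genes, with Pold4 among them, stood highest at 65.3% and 62.2%. Without Pold4 the 9 other polymerase genes stood at 53.8% and 52.7%. Within repair, homologous recombination stood at 56.5% and 57.2%, below the polymerases with Pold4 and above those without it. Mismatch repair stood at 66.6% and 61.1%. The Fanconi anaemia genes stood at 72.3% and 77.4% and end joining at 88.0% and 87.2%. Translesion synthesis stood at 90.9% and 89.3%. Base excision stood at 100.3% and 104% and nucleotide excision at 105% and 105%, where the controls themselves were at 95.0% and 105%. The base excision sum holds Parp3, its most abundant gene, at 79.3 and 90.5 FPKM in the controls and 108 and 113 FPKM with IL-22. Parp1, in the same sum, fell. The partners of base excision, which are outside this sum, came to 332 and 318 FPKM in the controls and 244 and 246 FPKM with IL-22. These sums weigh abundant genes most, and no test was made on them.

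**Figure D4:**
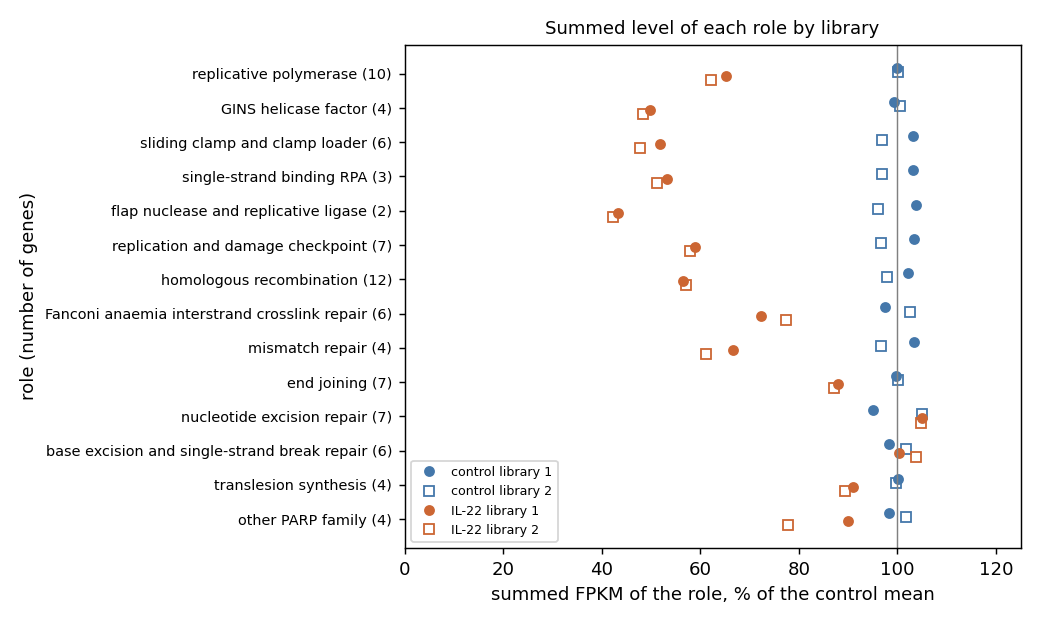
Summed FPKM of each role with at least 2 tested genes, apart from the SNF2-family pair, in each library as a percentage of the mean of the 2 control libraries, with the number of genes in brackets. The flap nuclease and ligase pair lies lowest with IL-22, at 43.3% and 42.4%, and base excision and nucleotide excision lie between 100.3% and 105%.

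Markers of dividing cells moved in the same direction as the replication genes. All 8 proliferation markers, Mki67, Top2a, Cdk1, Ccnb1, Ccna2, Aurkb, Plk1 and Bub1, fell, with a median difference of -0.84. Their summed level was 807 and 821 FPKM in the controls and 452 and 444 FPKM with IL-22. Their part in the falls of replication and recombination genes was not tested. In these bulk samples, fewer cells in S phase and less RNA per cell cannot be told apart. Replisome partners outside the rule gave 19 of 20 lower (95%) and 1 that did not pass (median -0.91). Top2a is counted both among these partners and among the proliferation markers. The share of lower calls over all tested rows was 30.8%. The fork protector Timeless (-1.73), the initiation factor Mcm10 (-1.59) and the chromatin assembly gene Chaf1b (-1.48) were the lowest of the replisome partners.

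Since replication genes moved together, their promoters were searched for the letters of an E2F site, the element through which E2F factors switch on S-phase genes. The motifs were TTTCCCGC, TTTCGCGC, TTTGCCGC and TTTGGCGC on both strands, and matches of different strands may overlap. The windows run from 250 bases before to 50 bases after each gene's start in RefSeq (build GRCr8), and 73 of the 89 genes had one. No window was matched for 16 genes, among them Gins4, Rad54l2, Polb, Msh4, Msh5, Rad21, Poll, Rad54b, Xrcc2, Xrcc6bp1, Chek2 and Rpa3. A match was found in 2.14% of all 33469 windows and in 4.41% of the 7171 tested genes with a window. It was found in 18 of the 71 tested genes of the set, or 25.4%. By side these were 10 of 23 replication genes, 3 of 6 checkpoint genes and 5 of 37 repair genes. Of the 18 genes 15 fell, 1 rose (Polk) and 2 did not pass (Fancc and Rad51d). Falls were common in the set with or without a match, at 47 of the 71 tested genes with a window. The share of lower calls over all tested rows was 30.8%.

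The stretches around the matches are shown for the replication and checkpoint genes, where most matches lay, with the match in capitals and 8 bases on each side, read along the gene's strand.
Clspn: gcgtctggGCGCGAAAgctcgaac
Chek1: aggttttgGCGGGAAAagctgtgc
Atm: ccgtgcacGCGGGAAAaggcgaag
Gins1: taagcctaTTTGGCGCCAAAgagaggag
Gins3: agtgaggcGCGGGAAAacgagttt
Pole: atgagagcGCGCCAAAttttcccg
Pole2: cggcggtgGCGCCAAAtctcaaac
Pole4: taaccggcGCGGGAAAggggccgg
Pola1: atcacaggGCGCCAAAtgcagtcc
Pold3: cgaagctgTTTCCCGCcggcggga
Rfc3 (upstream match): tcgcagccTTTCGCGCtcgcggga
Rfc3 (downstream match): tcgcgctcGCGGGAAAactcgtct
Rpa2: acgccggaGCGGCAAAcacttctt
Lig1: aggtctgcGCGCGAAAtctgtgtg

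In Gins1 the matches on the 2 strands overlap in a 12-base palindrome, and Rfc3 holds 2 separate matches. Of the 20 matches in the set 18 began within 100 bases before the start or after it, and the matches of Atm and Pola1 lay further upstream. Whole windows are printed for the 2 genes with the largest falls that held a match, Clspn and Gins1, and for the gene with the largest rise, Pold4, which held none. Capitals mark the E2F-type letters. The windows are chr5:144134387-144134686 for Clspn, chr3:160184670-160184969 for Gins1 and chr1:210955944-210956243 for Pold4, all on the plus strand of GRCr8.
Clspn: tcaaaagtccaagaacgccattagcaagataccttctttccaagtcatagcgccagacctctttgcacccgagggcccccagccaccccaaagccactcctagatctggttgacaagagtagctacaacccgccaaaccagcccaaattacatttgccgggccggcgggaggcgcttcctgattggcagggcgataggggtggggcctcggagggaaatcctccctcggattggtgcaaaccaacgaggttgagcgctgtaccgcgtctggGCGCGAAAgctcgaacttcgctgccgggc
Gins1: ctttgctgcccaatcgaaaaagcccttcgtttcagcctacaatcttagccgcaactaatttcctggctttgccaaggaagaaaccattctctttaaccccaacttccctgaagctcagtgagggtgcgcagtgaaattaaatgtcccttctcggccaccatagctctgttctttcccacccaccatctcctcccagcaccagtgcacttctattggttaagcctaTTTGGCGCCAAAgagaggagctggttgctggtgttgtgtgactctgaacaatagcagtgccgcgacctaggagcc
Pold4: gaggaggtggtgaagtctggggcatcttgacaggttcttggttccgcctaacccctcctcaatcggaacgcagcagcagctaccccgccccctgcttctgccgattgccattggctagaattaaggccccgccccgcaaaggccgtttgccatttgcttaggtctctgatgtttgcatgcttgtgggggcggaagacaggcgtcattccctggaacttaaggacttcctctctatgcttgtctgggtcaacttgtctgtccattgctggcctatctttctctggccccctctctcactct

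**Figure D5:**
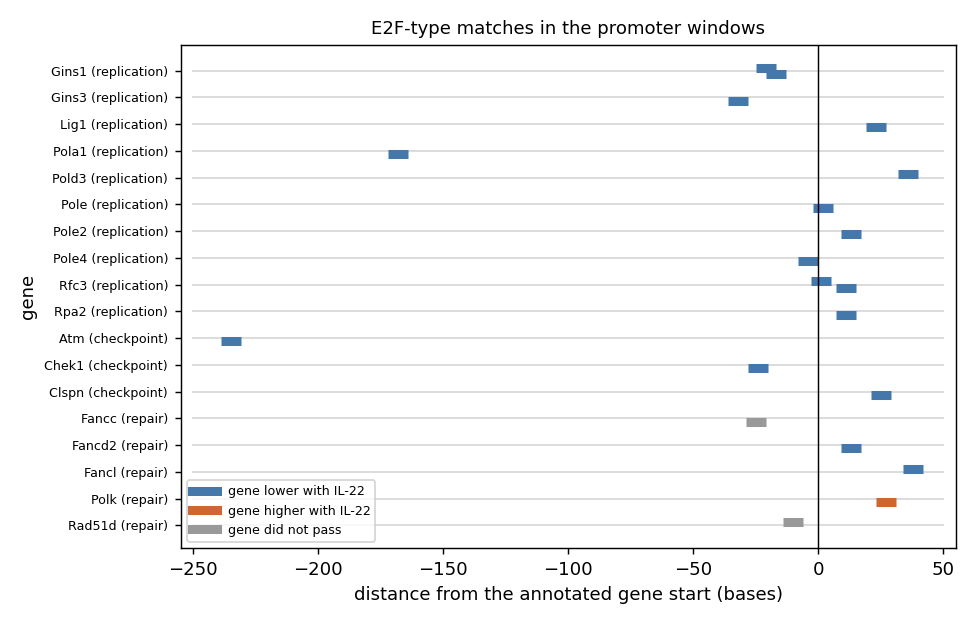
Positions of E2F-type matches in the promoter windows of the 18 genes that hold one, in bases from the annotated gene start, with the colour giving the gene's call and marks above the line for the gene's own strand. Of the 20 matches 9 begin within 100 bases before the start and 9 after it.

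Over the 71 tested genes of the set with a window the median difference was -0.93 with a match and -0.44 without one, and 10 of the 18 genes with a match were replication genes. Replication genes with a match had a median difference of -1.02 and those without one -0.85. In the checkpoint they were -1.03 for the 3 genes with a match and -0.02 for the 3 without. In repair the medians were -0.11 for the 5 genes with a match and -0.18 for the 32 without. Among the 7100 tested genes outside the set they were -0.22 with and -0.01 without. Exo1, Fen1 and Rfc5, among the largest falls, had windows without these letters, which says nothing about E2F at those genes. The box CCAAT, counted on both strands, was in 43.7% of the set and 38.3% of tested genes. The letters TTTGAA, which resemble an element of late cell-cycle promoters, were in 8.45% and 11.1%. A match is a description of the window and not a binding site.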

How the data were processed

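Libraries came from poly(A) RNA and were read on an Illumina HiSeq, as the labels' protocols say. For genes the authors deposited FPKM, with each library in its own column. TopHat2, Cuffdiff and the build rn5 are named in the submitters' processing notes. Annotation, filters, strand and scaling between libraries were not given in the sources used here, so overlapping or antisense genes and near-identical copies are uncertain. The lncRNA table was not used.

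Count tests were not used, since FPKM are no counts. The fit was made with limma 3.58.1 (R 4.3.3) on log2(FPKM + 1), for rows whose mean reached 1 FPKM, with a trended eBayes step, two-sided tests and no covariates, and with Benjamini-Hochberg adjusted p over all 9485 rows and a threshold of 0.05. Differences on this scale understate the change of low genes. With 2 libraries against 2, an exact permutation test cannot go below 0.333. Alternatives were other pseudocounts and filters, 2 further normalizations, eBayes untrended or robust, a block on replicate number, summed rows per symbol, and leaving out each library. Any gene of the rule could be named. Full statistics went to a fixed list of key genes, to up to 4 called genes per role by size, and to up to 3 per partner list, and other named genes were chosen after their values were seen. Genes, roles and lists were chosen with earlier results of these data known. Of 118 partner genes listed 93 had a row and 91 were tested. Promoters were read from RefSeq windows (GRCr8), matched by symbol, whose build differs from rn5. A planned search of protein sequences was not run. Values of some genes are not reported here. Summaries and figures used Python 3.11.15, pandas 2.3.3, numpy 2.4.6 and matplotlib 3.10.9.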

Additional observations from a re-analysis of the deposited data

How the results depend on the processing

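Counts of lower calls moved little for the set as a whole and for replication. Over the 14 alternatives the count of lower genes of the set was between 51 and 56, and that of replication genes 23 or 24. Of the 67 called genes 54 kept their call in every alternative that tested them, 49 lower and 5 higher. The count of higher genes was 11, and from 7 to 10 with 1 library left out. For repair it was 6, and from 3 to 6 with 1 library left out. Without the expression filter the lower checkpoint genes numbered 3 in place of 5, and 1 checkpoint gene was higher there and without the trend. The median of the set was -0.38 with a pseudocount of 5. That of replication was -0.98 with a pseudocount of 0.1, -0.78 with a pseudocount of 5 and from -0.97 to -0.82 with 1 library left out. The median of checkpoint genes was -0.38 with a pseudocount of 5 and from -0.73 to -0.37 with 1 library left out. For repair genes it was -0.19 with a pseudocount of 5 and from -0.28 to -0.21 with 1 library left out. A larger pseudocount shrinks differences of low genes by construction, and other causes were not tested.

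Signs flipped for 10 genes, none of them past the threshold in the main analysis. With quantile normalization these were Mlh3 (-0.23), Poli (-0.17) and Rad52 (-0.017). With 1 library left out, the differences ran from -0.19 to 0.13 for Ercc8, from -0.14 to 0.063 for Lig4, from -0.16 to 0.25 for Mlh3, from -0.21 to 0.068 for Msh3 and from -0.077 to 0.089 for Poli. They ran from -0.093 to 0.047 for Rad17, from -0.12 to 0.047 for Rad18, from -0.19 to 0.14 for Rad23b, from -0.28 to 0.066 for Rad51d and from -0.042 to 0.14 for Rad52.

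The labels give libraries 1 and 2 in each group, which share only a number. Deviations of same-numbered libraries had a correlation of -0.0020 across genes. With the replicate number as a block 56 genes of the set were lower and 12 higher, and the added call was Xrcc1. With 1 library left out, the lone library of its group takes its spread from the other group. Read depth is unknown, so counting error could not be given for genes near 1 FPKM.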
